A study of Homo sapiens with 6 samples.

Results

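Matrix metalloproteinases (MMPs) are zinc-dependent enzymes that cut collagen, elastin, proteoglycans and other proteins of the extracellular matrix, and cells of the granulocyte and macrophage lineage carry several of them. Here 8 MMP genes are described, MMP3, MMP9, MMP12, MMP13, MMP17, MMP24, MMP26 and MMP27, of 24 MMP family genes looked up and of 18086 gene symbols that appear in any list. They were chosen on the data themselves: each had a promoter histone mark listed in JMJD3 knockout cells or in parental cells, but not in both. The state of each promoter is therefore a description of how the genes were picked, and it supports nothing further. Over all listed symbols, 15.5% differed in promoter state for at least 1 of the marks.

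The cells were HL-60, a human leukaemia line labelled as myeloblast and grown in DMEM with 10% FBS. The knockout cells lack JMJD3, a demethylase encoded by KDM6B that removes methyl groups from H3K27, and the parental cells are the line they came from. The means of disrupting JMJD3, and whether the knockout cells are 1 clone or a pool, are not given in the sources used here. Chromatin immunoprecipitation with sequencing was done for H3K4me3 and for H3K27me3, with 1 library per genotype and mark, and no difference below has a replicate check. The labels give the mark of the H3K27me3 libraries in the title only; their antibody label names H3K4me3 with another catalogue number than that of the H3K4me3 libraries.

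The files list peaks whose centre lies within 20 kb of a transcription start site (TSS), and they hold no read counts or heights, so the depth is unknown. A mark that is not listed may still be present below the calling limit. The knockout list held 24943 H3K4me3 peaks with a median width of 260 bp, against 33470 peaks and 359 bp in the parental list. These H3K4me3 peaks covered 8.29 Mb in knockout and 17.49 Mb in parental cells. The H3K27me3 lists held 3234 peaks in knockout and 3578 in parental cells, with median widths of 1032 and 909 bp. Promoter H3K4me3 was used to check the cell label. Of 9 markers of myeloblasts and promyelocytes, 6 were marked in both genotypes, CTSG was marked in parental cells only, and ELANE and AZU1 were marked in neither. Over all listed symbols, 61.9% were marked by H3K4me3 in both genotypes, so this count does not by itself check the label. Of 3 markers each, T cell, erythroid, fibroblast and epithelial genes had 0 marked in either genotype, while of the B cell genes CD79A was marked in both and MS4A1 in neither.

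H3K4me3 lies at active and poised promoters, and H3K27me3 is laid down by a Polycomb repressive complex over genes that are held silent. The MMP family includes collagenases, gelatinases, stromelysins, a macrophage elastase and membrane-type enzymes. Several of its members, such as the collagenases MMP8 and MMP13 and the stromelysins MMP3 and MMP10, sit side by side on the long arm of chromosome 11. A promoter was counted as marked when a peak centre lay at most 5 kb from the TSS or when a peak spanned it. Distances below run in the direction of the genome, so a positive one lies at a higher coordinate than the TSS. Coordinates are on hg19. Peak positions are 1-based, taking the deposited starts to be 0-based, which the sources do not state. TSS positions were recovered from the listed peak centres and distances, and they and all distances are given without this shift.

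By this measure 6 of the 8 genes carried promoter H3K27me3 in knockout cells only: MMP3, MMP12, MMP13, MMP27, MMP24 and MMP26. Over all listed symbols, 2.6% were marked by H3K27me3 in knockout cells only, 2.74% in parental cells only and 2.37% in both. The other 2 genes differed in H3K4me3: MMP9 was marked in knockout cells only and MMP17 in parental cells only, states held by 0.984% and 9.45% of all symbols, while 61.9% were marked by H3K4me3 in both genotypes. None of the 8 genes differed in both marks, and nothing is read from that. In either direction, 5.34% of all symbols differed in H3K27me3 and 10.4% in H3K4me3. Of these genes, MMP13 lay closest inside the 5 kb limit, with a knockout H3K27me3 peak at 4575 bp, and MMP9 closest outside it, with a parental H3K4me3 peak at 5231 bp.

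**Figure D1:**
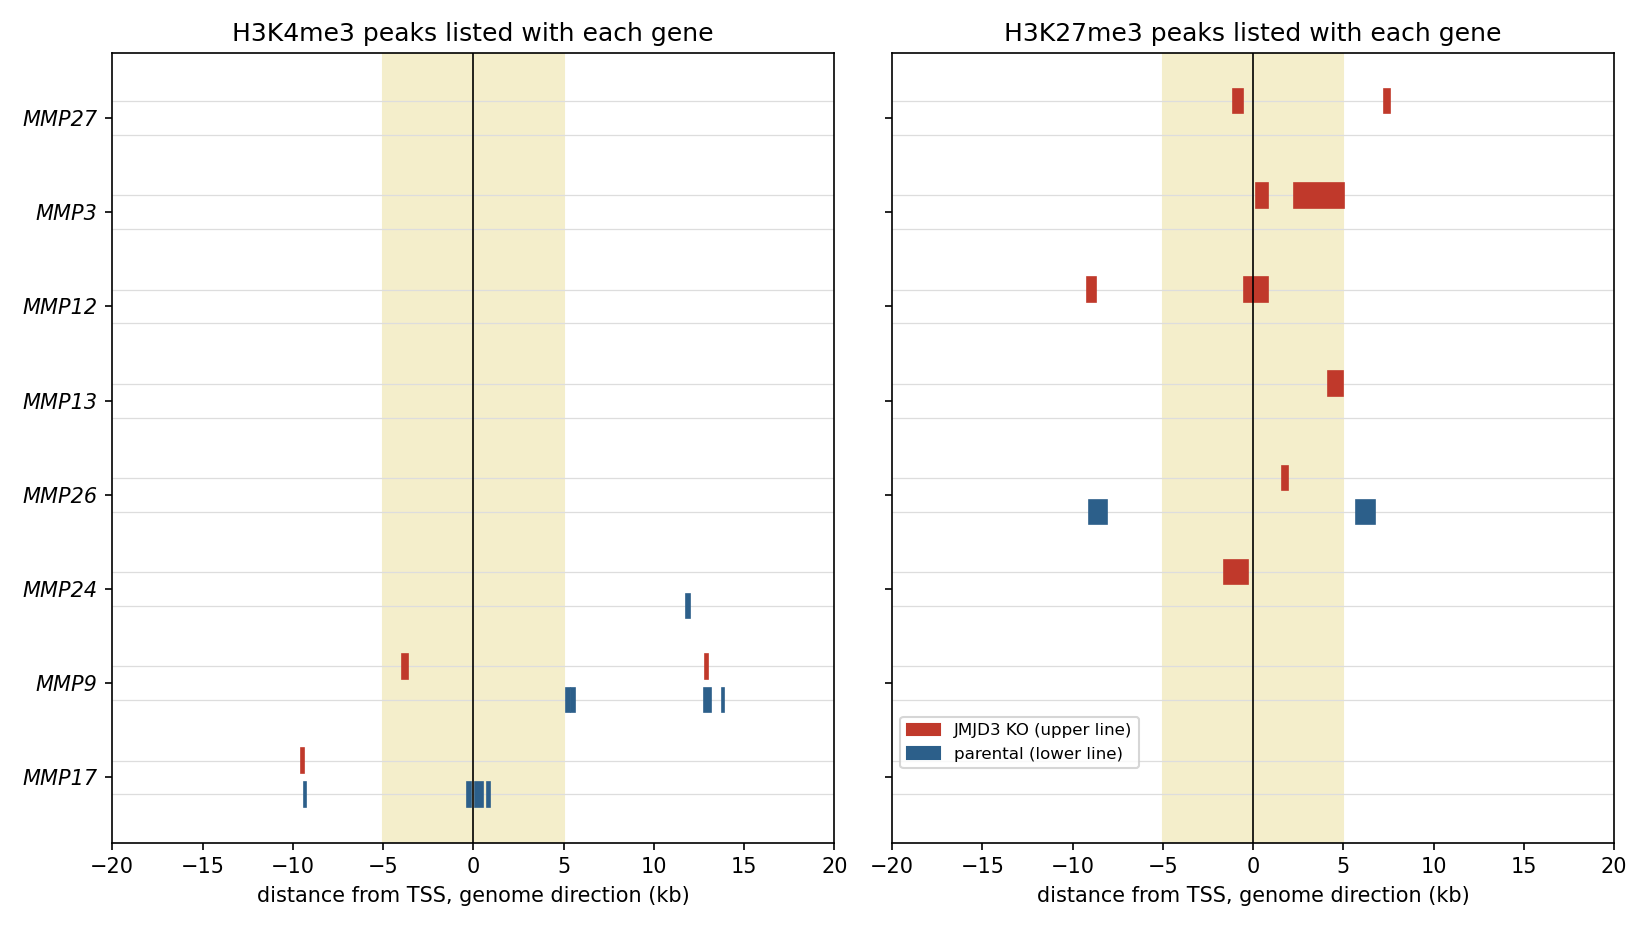
Peaks listed with each of the 8 genes, as bars drawn to scale at their distance from the TSS in kb (x axis), for H3K4me3 at left and H3K27me3 at right; the upper line of each gene is the JMJD3 knockout list, the lower line the parental list, and the shading marks the 5 kb window. Near MMP27, MMP3, MMP12, MMP13 and MMP24 H3K27me3 peaks appear on the knockout line only, and the 3 parental H3K4me3 peaks around the MMP17 TSS have no bar above them.

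Of the genes with H3K27me3, MMP3, MMP12, MMP13 and MMP27 belong to the chromosome 11 cluster. MMP3 encodes stromelysin-1, which degrades proteoglycans and other matrix proteins and activates other MMP proenzymes. It had 2 H3K27me3 peaks in knockout cells and none listed in parental cells. The nearer peak, from 102714493 to 102715190 on chromosome 11, began 150 bp above the TSS at 102714342 (NM_002422) and was 698 bp wide. The second, from 102716609 to 102719367, was centred 3645 bp above the TSS and measured 2759 bp. It was the widest of the H3K27me3 peaks at these genes, and 92.5% of the peaks in the knockout list were narrower. No H3K4me3 peak was listed within 20 kb of MMP3 in either genotype.

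MMP12, the macrophage elastase, was the gene whose TSS itself lay under an H3K27me3 peak. In knockout cells a peak of 1290 bp ran from 102745275 to 102746564, over the TSS at 102745764 (NM_002426). A further knockout peak of 518 bp was centred at -8952 bp. The parental list held neither, and H3K4me3 was not listed within 20 kb in either genotype. MMP13, collagenase-3, a main enzyme of fibrillar collagen breakdown in cartilage and bone, had 1 knockout H3K27me3 peak of 820 bp, from 102830629 to 102831448. This peak was centred 4575 bp above the TSS at 102826463 (NM_002427), so the state of MMP13 rests on the width of the window, and within 1 kb the gene was unmarked in both genotypes.

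MMP27 lies at the lower end of the listed cluster, with its TSS at 102576468 (NM_022122). A knockout H3K27me3 peak of 542 bp, from 102575375 to 102575916, was centred at -823 bp. A further one of 375 bp was centred 7410 bp above it and was also listed with MMP8, the neutrophil collagenase, at -11807 bp from the MMP8 TSS. Of the 9 knockout H3K27me3 peaks at the 8 genes, this was the only one shared with another MMP gene. MMP3, MMP12, MMP13 and MMP27 shared no listed H3K27me3 peak with one another. Along the cluster the listed peaks spanned 12 consecutive numbers in the peak names, which follow genome position, 2 of them with no line, and whether they belong to 1 broader domain was not tested. Peak widths were small for most of them: 19.2% of the knockout list was narrower than the nearer MMP27 peak and 7.4% narrower than the one shared with MMP8.

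Seen along the cluster, the knockout list held 10 H3K27me3 peaks with a summed width of 8455 bp between points 20 kb outside the TSSs of MMP27 and MMP13, and the parental list held 0. The TSSs of MMP27 and MMP13 are 250.0 kb apart. Beside the 7 peaks listed with MMP27, MMP3, MMP12 or MMP13, a pair at 12230 and 14020 bp from the MMP8 TSS was listed with MMP8 alone. A peak of 753 bp at -6796 bp from the TSS of MMP10, stromelysin-2, was also listed with the pseudogene WTAPP1. MMP8 and MMP10 were not counted as marked, since their peaks lay outside the 5 kb window. H3K4me3 peaks were listed nowhere in this interval in either genotype. The nearest were listed with TMEM123 below it and with DCUN1D5 and DYNC2H1 above it, in both genotypes.

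The interval without a listed parental H3K27me3 peak extended far beyond the MMP genes. The nearest listed parental peaks ended at 101776540 and began at 107471428, which leaves 5.69 Mb with 0 listed peaks in parental cells, where the knockout list held 17. The input libraries were not analysed here, so DNA copy number over this interval was not tested in either genotype. These 17 peaks were listed with 14 genes or transcripts, among them the coactivator gene YAP1, PDGFD and the glutamate receptor gene GRIA4. In all 4 lists the numbers in the peak names follow position, and many numbers have no line. From the first to the last of the 17 knockout peaks the numbers counted 77, whereas the numbers of the parental peaks on either side of the interval left room for 2. Over all of chromosome 11 the numbers counted 974 in the knockout list, 303 of them listed, and 1130 in the parental list, 325 of them listed. The sources do not say what the numbers with no line stand for.

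H3K4me3 was present in the same 5.69 Mb in both genotypes, with 20 listed peaks in knockout and 37 in parental cells. On all of chromosome 11 the H3K4me3 lists held 1412 knockout and 1807 parental peaks. For scale, there were 104 intervals of this length or longer between neighbouring parental H3K27me3 peaks on the same chromosome. Knockout peaks inside them numbered 2 in the median, and 6 of the 104, this one included, held 17 or more. Per Mb, 2 of the 104 held at least the 2.99 knockout peaks per Mb counted here. In the other direction, 95 such intervals lay between neighbouring knockout peaks, and none held more than 13 parental peaks. These intervals were defined after the values at the cluster had been seen. Genes of the cluster were also chosen on some of the same peaks, so nothing is read from these ranks.

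**Figure D2:**
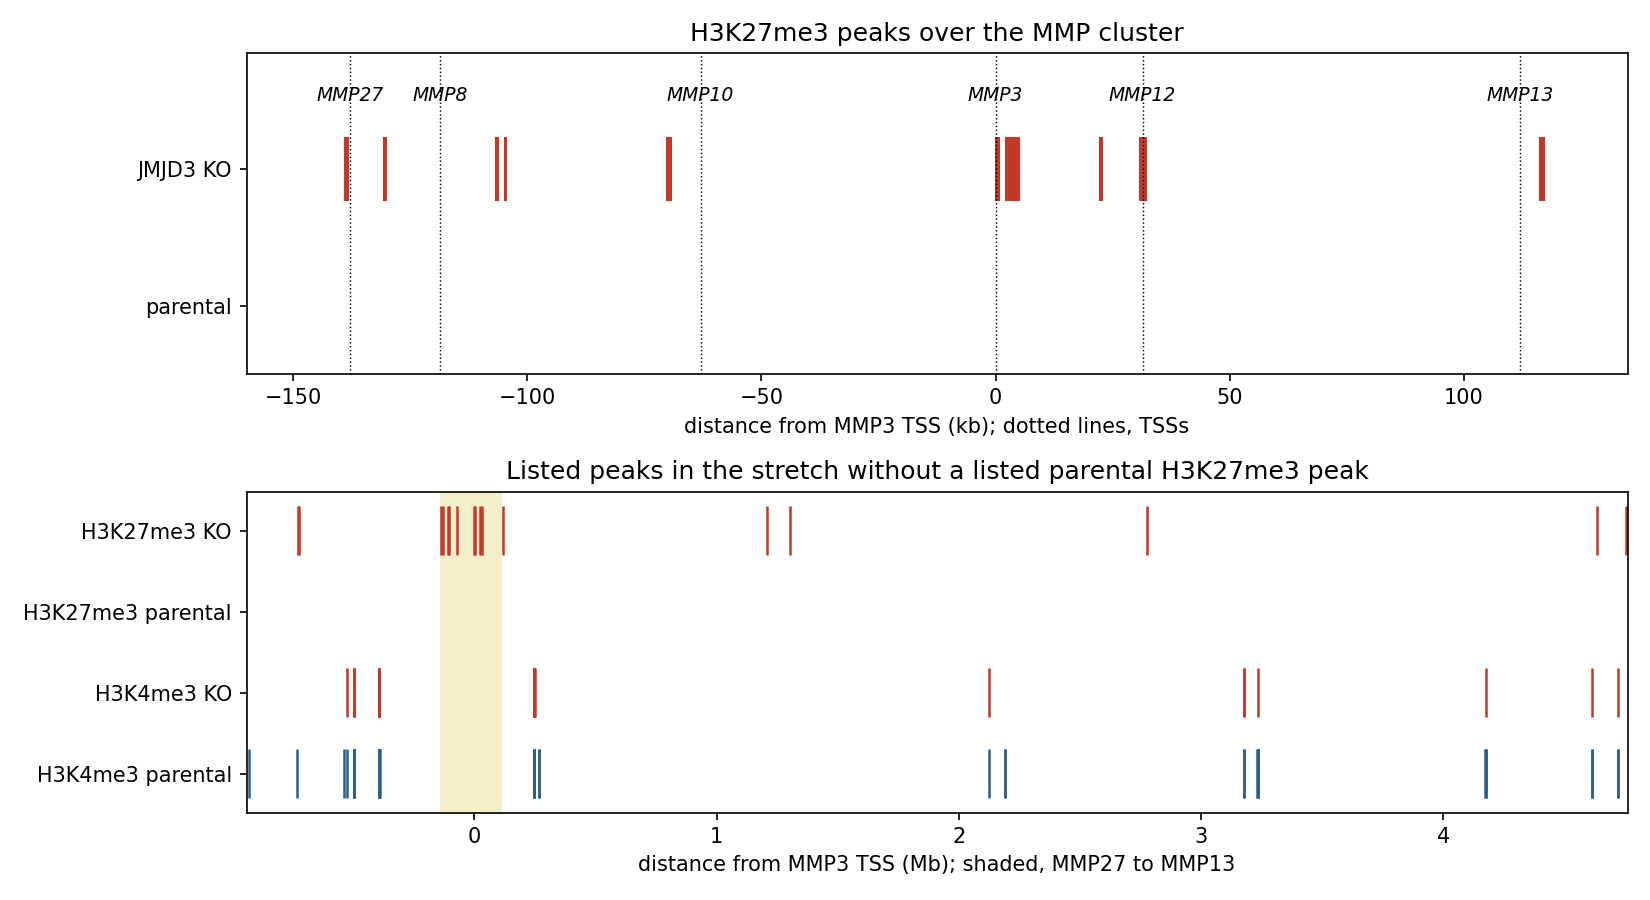
Upper panel, H3K27me3 peaks over the MMP cluster on chromosome 11 as bars to scale, by distance from the MMP3 TSS in kb, with the JMJD3 knockout list above the parental list and dotted lines at the listed TSSs. Lower panel, the centres of all listed peaks of both marks in the 5.69 Mb interval, by distance from the MMP3 TSS in Mb; the parental H3K27me3 line is empty, while the knockout line holds 17 peaks, 10 of them in or next to the shaded cluster.

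In fixed windows of 300 kb, the one with MMP10, MMP3, MMP12 and MMP13 held 8 knockout and 0 parental H3K27me3 peaks. Of 1933 windows with any listed H3K27me3 peak, 4 (0.207%), this one included, had at least 8 knockout and 0 parental peaks, and 0 had at least 8 parental and 0 knockout peaks. The difference between genotypes was as large or larger in 6 windows toward the knockout and in 5 toward the parental list. Differences of this size thus occurred in both directions. The window was picked because it holds MMP3, MMP12 and MMP13, which were chosen for H3K27me3 listed in knockout cells only. Its counts therefore repeat that choice, and nothing is read from its rank. A shift of the windows by 150 kb gave 9 knockout peaks around MMP3, with 2 windows of that kind among 1961, and windows of 500 kb gave 10, with 4 among 1659. Parental peaks numbered 0 each time.

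**Figure D3:**
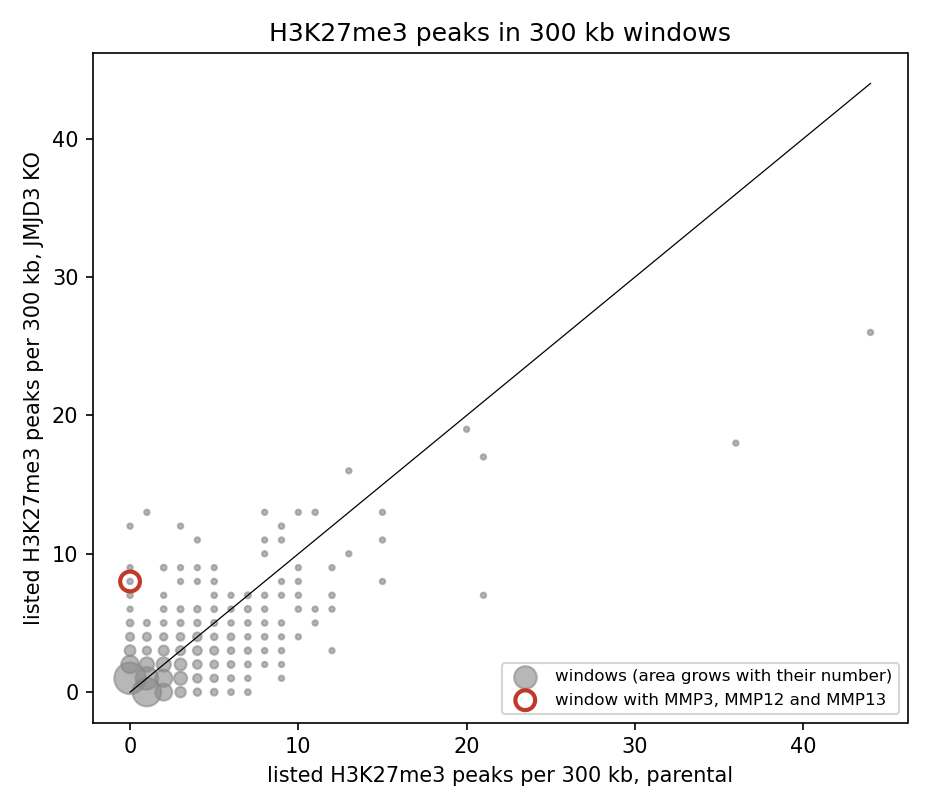
Each point is a pair of counts of listed H3K27me3 peaks in 300 kb windows, parental on the x axis and JMJD3 knockout on the y axis, with a larger area where more windows share the pair; the line marks equal counts. The ringed window, with 8 knockout and 0 parental peaks, lies on the y axis with 3 other windows of at least 8 knockout peaks.

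Outside the cluster, MMP24 was also marked by H3K27me3 in knockout cells only. It encodes a membrane-type MMP (MT5-MMP) known mainly from the nervous system. In knockout cells 1 H3K27me3 peak of 1341 bp ran from 33812935 to 33814275 on chromosome 20 and stopped 263 bp below the TSS at 33814538 (NM_006690). Few peaks were listed around it in either genotype: the next listed knockout peaks lay at 31175151 and 36315301, with no unlisted number between them, so that the MMP24 peak stood alone in 5.14 Mb. In parental cells the listed peaks on either side, at 31802568 and 34680916, had consecutive numbers. H3K4me3 near MMP24 consisted of 1 parental peak of 202 bp at 11902 bp, and 0 knockout peaks were listed within 20 kb.

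The promoters of MMP24 and MMP27 are shown because both lay within 1 kb of a knockout H3K27me3 peak and they differ sharply in base composition. Both sequences are from RefSeq on GRCh38.p14, 300 bases from 250 before the start to 50 after it, 5′ to 3′ on the gene's strand, with each CpG dinucleotide in capitals. That of MMP24 is chr20:35226440-35226739 on the plus strand, and that of MMP27 is chr11:102705720-102706019 on the minus strand.
MMP24: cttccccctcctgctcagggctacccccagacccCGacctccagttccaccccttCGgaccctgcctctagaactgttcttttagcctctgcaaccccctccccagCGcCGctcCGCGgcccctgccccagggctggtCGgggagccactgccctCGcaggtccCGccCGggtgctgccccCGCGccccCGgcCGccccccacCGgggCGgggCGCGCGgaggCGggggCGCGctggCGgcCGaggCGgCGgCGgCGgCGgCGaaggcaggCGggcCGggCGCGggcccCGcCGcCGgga
MMP27: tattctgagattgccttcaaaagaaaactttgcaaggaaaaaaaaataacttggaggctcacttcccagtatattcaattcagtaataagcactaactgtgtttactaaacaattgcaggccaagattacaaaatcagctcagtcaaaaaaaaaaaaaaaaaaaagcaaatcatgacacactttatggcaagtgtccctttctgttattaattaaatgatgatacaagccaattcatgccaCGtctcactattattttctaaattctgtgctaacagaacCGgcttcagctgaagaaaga

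The MMP24 promoter was 80.0% G and C with 37 CpGs, more than in 88.7% of the 35114 RefSeq promoters of this length, whose median was 14. The MMP27 promoter was 33.3% G and C with 2 CpGs, and 11% of promoters had fewer. Of its neighbours on chromosome 11, MMP8 and MMP10 also had 2 each, MMP20 had 3 and MMP7 had 4. The knockout H3K27me3 peaks of these genes thus lay beside both CpG-rich and CpG-poor promoters. Searched on both strands, the GC box CCGCCC was found in the MMP24 promoter and not in that of MMP27, and in 45.0% of all promoters. The AP-1 motif TGANTCA (7.7% of promoters), the TATA box TATAAA (11.5%), the NF-kB motif GGGNNTTCC (6.6%) and the ETS core AGGAAG (33.7%) were in neither window. The table held entries for 3 of the 8 genes; that of MMP26 is not shown, because which of its transcripts the entry begins at is not given.

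MMP26, matrilysin-2, a small MMP without the hemopexin domain of most relatives, lies among olfactory receptor genes on chromosome 11. Knockout cells had 1 H3K27me3 peak of 315 bp, from 5011020 to 5011334, centred 1753 bp above the TSS at 5009423 (NM_021801). Parental cells had 2 wider peaks, of 991 bp at -8580 bp and of 1054 bp at 6204 bp. The parental peaks thus lay on either side of the TSS and of the knockout peak, and the nearest of them was 3766 bp from it. All 3 peaks were also listed with the olfactory receptor gene OR51L1, and the parental one at 6204 bp lay nearer to the OR51L1 TSS, at -4585 bp. Only 3.6% of the knockout list was narrower than the MMP26 peak. Within 10 kb MMP26 was marked in both genotypes, and the difference in summed width, knockout minus parental, was then -1730 bp.

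MMP9, gelatinase B, is stored in granules of maturing neutrophils and digests denatured and basement membrane collagen. Knockout cells had an H3K4me3 peak of 377 bp from 44633571 to 44633947 on chromosome 20, centred at -3788 bp from the TSS at 44637546 (NM_004994). No parental peak lay within 8721 bp of it, and 72.1% of the knockout list was narrower. Parental cells had a pair of narrow peaks of 219 and 227 bp on the other side of the TSS, at 5231 and 5526 bp, with no knockout peak within 7200 bp. The genotypes therefore differed in where H3K4me3 was listed, with no knockout peak at the parental places and no parental peak at the knockout place. The listed knockout peaks on either side of the parental pair had consecutive numbers, 17185 and 17186. Between the nearest knockout peaks outside this region 1 peak number had no line, and it did not fall between those peaks. None of these peaks reached the TSS, and the gene's state depends on the 5 kb limit.

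Farther from MMP9, at 12913 bp in knockout and 12965 bp in parental cells, H3K4me3 peaks of 146 and 409 bp overlapped. This was the only overlap between genotypes among the peaks listed with the 8 genes. It lay 131 bp in knockout and 183 bp in parental cells from a TSS of SLC12A5, which encodes a neuronal potassium-chloride cotransporter. A parental peak of 146 bp at 13825 bp from the MMP9 TSS was likewise nearer to SLC12A5. All 6 peaks listed with MMP9 were also listed with SLC12A5. Within 20 kb the summed H3K4me3 width was 523 bp in knockout and 1001 bp in parental cells. No H3K27me3 peak was listed within 20 kb of MMP9 in either genotype.

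MMP17 encodes MT4-MMP, a membrane-type MMP held by a lipid anchor. Of the 8 genes it was the only one with H3K4me3 listed directly around its TSS, at 132312940 on chromosome 12 (NM_016155), and this was in parental cells. The 3 parental peaks there were 219, 420 and 164 bp wide, at -228, 331 and 841 bp, with a summed width of 803 bp. The knockout list held no peak within 9 kb of this TSS. Both genotypes had a narrow peak about 9 kb below it, of 163 bp at -9479 bp in knockout and of 146 bp at -9320 bp in parental cells. These peaks lay 4 bp apart, so they did not count as overlapping, and with a window of 10 kb MMP17 was marked in both genotypes. The parental one had the smallest width in its list, which 1459 peaks had. H3K27me3 was not listed within 20 kb in either genotype.

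Over all 8 genes, 3 distinct H3K4me3 peaks were listed in knockout and 9 in parental cells, and 9 distinct H3K27me3 peaks in knockout and 2 in parental cells. The H3K4me3 peaks had median widths of 163 bp in knockout and 219 bp in parental cells, against 260 and 359 bp over the whole lists. The H3K27me3 peaks had medians of 698 bp in knockout and 1022.5 bp in parental cells, against 1032 and 909 bp. None of the 9 knockout H3K27me3 peaks overlapped a parental peak, where 29.6% (28.0 to 31.2, 95% Wilson interval, counting error only) of the whole knockout list did. Neither of the 2 parental H3K27me3 peaks overlapped a knockout peak, where 27.2% (25.8 to 28.7) of the parental list did. For H3K4me3, 1 of 3 knockout and 1 of 9 parental peaks overlapped, where 88.7% (88.3 to 89.1) of the knockout list and 52.6% (52.1 to 53.1) of the parental list did. Because these genes were chosen for a difference, nothing is read from that.

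The 16 other MMP genes had no differing promoter state, which follows from the choice of the 8 and is not a result. Only 10 of the 16 had a line in any list, and the other 6, MMP1, MMP2, MMP7, MMP16, MMP20 and MMP21, had no listed peak of either mark within 20 kb. MMP11, stromelysin-3, and MMP15, a membrane-type MMP, had promoter H3K4me3 in both genotypes. MMP15 had 146 bp in knockout and 1070 bp in parental cells, and MMP11 had 272 bp in knockout and 358 bp in parental cells. The MMP11 peaks lay nearer to CHCHD10. MMP14, the membrane-type collagenase MT1-MMP, had its nearest H3K4me3 peaks just outside the window, at -5672 bp with 170 bp in knockout and at -5893 bp with 1456 bp in parental cells. Both peaks lay nearer to MRPL52.

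Of 14 genes that inhibit MMPs or belong to the plasminogen system, which activates MMP proenzymes, 8 had a line. TIMP1, a tissue inhibitor of metalloproteinases on the X chromosome, had 1 H3K4me3 peak of 168 bp in parental cells, centred 205 bp from its TSS, and 0 in knockout cells. SERPINB2, an inhibitor of the urokinase-type plasminogen activator, had 3 promoter peaks of 646 bp in knockout cells only, with parental peaks from 7901 bp onward. Neither call held in all settings. Both ended with peaks of at least 300 bp and with only peaks that span the TSS. The TIMP1 call also ended with lists of equal length, and the SERPINB2 call with windows of 1, 10 and 20 kb. The other 6 were marked by H3K4me3 in both genotypes. Urokinase itself, PLAU, had 2399 bp in knockout and 2862 bp in parental cells, and its receptor PLAUR had 481 bp in knockout and 1455 bp in parental cells. TIMP2 had 271 bp in knockout and 987 bp in parental cells. For scale, the whole H3K4me3 lists covered 8.29 Mb in knockout and 17.49 Mb in parental cells, and no change particular to these genes was tested. RECK, a membrane-anchored MMP inhibitor, was wider in knockout cells, with 577 bp against 168 bp in parental cells. SERPINE2, another serpin, also carried H3K27me3 in both genotypes, with 2958 bp in knockout and 3807 bp in parental cells.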

How the data were processed

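Each deposited file is a peak list of 1 library joined to RefSeq transcripts by the authors, with 1 line per pair of peak and TSS. Per the submitters' processing notes, the tools included MACS2 2.1.1, BWA 0.7.10 and SAMtools, with hg19 as the build. Settings, and whether inputs were used for calling, are not given in these sources. The 2 input libraries were not analysed here. Per the file headers, a line holds positions, a distance and a score. The authors' score falls with distance and is set by it alone (largest error 5e-13), so it was not used. Every pair of a listed TSS and a listed peak under 20 kb apart had a line.

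Distinct peaks were counted by position with pandas 2.3.3 in Python 3.11.15, and an overlap was at least 1 bp. The code for state calls and overlaps was run on simulated peaks placed by the same rules, which checks the code and not the rules. With 1 library per genotype and mark there is no test and no p-value. The genes, lists and motifs were chosen with earlier results of these data known; named are the 8 genes, genes sharing their peaks, and family, inhibitor or activator genes with differing states, while further genes and the counts in windows and intervals were chosen after their values were seen. Alternatives were other windows of 1, 10 and 20 kb, peaks that span the TSS, the nearest gene only, peaks of at least 300 bp, lists of equal length (the widest peaks of the longer list), and an overlap of 50%. The state of 1 marker gene is not reported here.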

Additional observations from a re-analysis of the deposited data

How the results depend on the processing

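The H3K27me3 state of 6 genes kept its count under 3 alternatives: nearest gene only, peaks of at least 300 bp and lists of equal length. With a window of 1 kb, 4 differed (MMP3, MMP12, MMP24 and MMP27), with 10 or 20 kb 5 did, and with peaks that span the TSS 1 (MMP12). Shares over all symbols were counted for the 5 kb rule only. The counts of genes under other settings, here and below, therefore have no such share beside them. The H3K4me3 state differed for 2 genes; within 1 kb for 1 (MMP17), within 10 kb for 0, within 20 kb for 1 (MMP24), and for 0 with peaks that span the TSS. The difference in summed width, knockout minus parental, turned from 377 bp to -69 bp (10 kb) and -478 bp (20 kb) at MMP9, and from 315 bp to -1730 bp (10 and 20 kb) at MMP26. The distinct H3K4me3 peaks numbered 1 in knockout and 2 in parental cells with peaks of at least 300 bp, and 5 in parental cells with lists of equal length; the parental H3K27me3 peaks numbered 1 for the nearest gene. The overlapping H3K4me3 peak was lost (0) in both genotypes at 300 bp, and in parental cells when 50% had to be covered.

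Among the other MMP genes, 1 differed in H3K4me3 with peaks that span the TSS (MMP15) and 2 with peaks of at least 300 bp (MMP11, MMP15), all marked in parental cells only; in H3K27me3, 1 differed within 10 kb (MMP10) and 2 within 20 kb (MMP8, MMP10), marked in knockout cells only. Of the inhibitor and activator genes, 1 differed in H3K4me3 within 1, 10 and 20 kb (TIMP1) and with peaks that span the TSS (RECK), where 1 also differed in H3K27me3 (SERPINE2). With peaks of at least 300 bp 3 differed in H3K4me3 (RECK in knockout cells only, TIMP2 and PLAUR in parental cells only), without TIMP1 and SERPINB2, and with lists of equal length 2 did (RECK and SERPINB2, in knockout cells only), without TIMP1. The cause of these changes was not tested. No paired analysis was possible because there is 1 library per genotype and mark. Depth is unknown, so an unlisted peak is not an absent mark.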
